A study of Mus musculus with 32 samples.

Results

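The comparison described here is the difference between 2 diet responses of mouse intestinal stem cells: the change from control to high-fat diet in PparD mice minus the same change in wild-type (WT) mice. It uses 16 of the 32 libraries of the series, 4 in each of 4 groups, and asks of each gene whether its response to the diet was lost, gained or turned in PparD. Of 5872 genes tested, 5 passed, a share of 0.0851%, and all 5 had a lower response in PparD than in WT.

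The series concerns a high-fat diet, fatty acid oxidation and intestinal stem cells, and it also holds PparA (labelled Ppara-null) and PparDA mice (labelled with both alleles), which enter the fit and its estimate of spread but not the difference. Crypt cells were stained for CD326 (EpCAM, an epithelial surface protein) and with the viability dye DAPI, and the GFP-high cells were sorted into TRI reagent. Polyadenylated RNA was counted by a 3′ digital gene expression method, which reads the end of each transcript, so counts do not grow with transcript length. All mice carry the strain label C57BL6. By library number, WT on the control diet is 1, 9, 17 and 26, WT on the high-fat diet 2, 10, 18 and 25, PparD on the control diet 3, 11, 19 and 27, and PparD on the high-fat diet 4, 12, 20 and 28. The PparD genotype is labelled Ppard-fl/fl, a pair of floxed alleles of Ppard. The sources used here do not give whether and in which cells they were recombined, what drives the GFP, how long the diets lasted or how old the mice were. Nothing in the labels ties the 4 libraries of a group to separate mice, so the p-values measure the spread between these libraries.

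PPAR-delta, the product of Ppard, is a nuclear receptor that pairs with the retinoid X receptor on DNA and raises transcription when a fatty acid binds it. Its targets in many tissues include enzymes that carry fatty acids into mitochondria and break them down by beta-oxidation, and PPAR-alpha, the product of Ppara, shares many of them. Intestinal stem cells sit at the crypt base between Paneth cells and give rise to all epithelial lineages of the gut.

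The libraries held 629464 to 724155 counts and 11683 to 12151 genes with a count. Library numbers fall into 4 runs of 8 consecutive numbers, each with every group once, and the run was a factor in the fit. The runs differed in sex-linked genes: Xist, expressed in females, was at 479 to 956 CPM (counts per 1e+06 counts) in runs 1 and 3 and at 0 to 9.98 CPM in runs 2 and 4, and the Y-linked Ddx3y was at 0 and at 14.6 to 39.9 CPM. In WT the control library came first in runs 1 to 3, and in run 4 the high-fat library did. In PparD control always preceded high-fat, so that place in the run and diet cannot be told apart in PparD. Ppard, the targeted gene, had 1 to 7 counts in every one of the 16 libraries, with 1 to 4 in WT control, 1 to 6 in WT high-fat, 1 to 7 in PparD control and 1 to 5 in PparD high-fat. At this depth it does not check the genotype labels, and a 3′ read outside a deleted part would check nothing. Ppara had 0 to 5 counts and Pdk4, a PPAR target that restrains glucose oxidation, 0 to 7, and neither was tested.

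Among the genes that passed were Rps24, the gene of a small ribosomal subunit protein, Ptms, which encodes the small acidic nuclear protein parathymosin, and Clta, which encodes a light chain of clathrin, the coat protein of endocytic vesicles. In PparD Rps24 and Ptms fell on the high-fat diet. No gene called for the difference had lost a response seen in WT. By the unadjusted p of each diet effect 2 of the 5, among them Ptms, had a response in PparD alone (gained) and 3, among them Rps24 and Clta, had responses of opposite sign (turned). None of the 5 was called for the diet in WT, so the word turned rests there on unadjusted p-values. A pair of the 5 share a stretch of identical sequence, so reads from it could be assigned to either, and the 5 cover 4 loci.

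Rps24 (ENSMUSG00000025290, chromosome 14, 24487125 to 24496959, mm10) stood at 1150, 1439, 1093 and 1982 CPM in WT control and at 2003, 2585, 2117 and 1355 CPM in WT high-fat libraries of runs 1, 2, 3 and 4. In PparD control it stood at 7587, 7570, 7964 and 6277 CPM and in PparD high-fat at 1826, 1988, 1575 and 1762 CPM. The PparD control libraries were all above the others, and the remaining 3 groups overlapped. In PparA it stood at 1254 to 1633 CPM. In PparDA it stood at 2797 to 3250 CPM on the control and at 1522 to 2398 CPM on the high-fat diet, without overlap, and that difference was not tested here. The difference of the Rps24 diet response was −2.54 ± 0.22 (log2, SE; 95% interval −2.99 to −2.09; edgeR adjusted p = 2.1e-08), from 0.50 ± 0.15 in WT (adjusted p = 0.27) and −2.04 ± 0.16 in PparD (adjusted p = 1.4e-09). Within runs 1 to 4 it was −2.85, −2.77, −3.29 and −1.28.

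Ptms (ENSMUSG00000030122, chromosome 6, 124913681 to 124920103) was a low gene. It stood at 2.75, 10.5, 7.77 and 8.80 CPM in WT control and 8.83, 18.2, 10.2 and 5.83 CPM in WT high-fat, against 14.9, 25.3, 42.4 and 43.0 CPM in PparD control and 2.96, 7.46, 4.35 and 4.4 CPM in PparD high-fat. On the CPM scale PparD control overlapped WT high-fat through the libraries at 14.9 and 18.2 CPM, while every PparD high-fat library lay below every PparD control library. The PparDA groups did not overlap either, at 5.07 to 18.1 CPM on the control and 1.57 to 4.77 CPM on the high-fat diet. In PparA they overlapped (1.55 to 6.42 and 1.49 to 6.65 CPM). These diet effects were not tested here. The difference of the Ptms diet response was −3.21 ± 0.54 (95% interval −4.33 to −2.10; edgeR adjusted p = 0.0034), with 0.53 ± 0.39 in WT and −2.68 ± 0.36 in PparD (adjusted p = 0.78 and 6.4e-05). It had the largest size of the 5, and within runs 1 to 4 it was −2.61, −2.08, −2.91 and −2.21.

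Clta (ENSMUSG00000028478, chromosome 4, 44004452 to 44032846) stood at 38.5, 38.9, 48.2 and 157 CPM in the WT control libraries 1, 9, 17 and 26 and at 162, 190, 211 and 33.5 CPM in the WT high-fat libraries 2, 10, 18 and 25. The high values in WT were those of the second library of each run, under either diet label. In PparD Clta stood at 112, 87.7, 80.2 and 113 CPM on the control and at 37.1, 31.3, 29.0 and 24.9 CPM on the high-fat diet, without overlap. The PparDA groups did not overlap either, at 45.4 to 67.6 CPM on the control and 27.3 to 44.6 CPM on the high-fat diet. In PparA they overlapped (50.8 to 67.4 and 38.2 to 63.2 CPM). These diet effects were not tested here. The difference of the Clta diet response was −2.77 ± 0.56 (95% interval −3.92 to −1.61; edgeR adjusted p = 0.042), from 1.09 ± 0.37 in WT and −1.68 ± 0.43 in PparD (adjusted p = 0.32 and 0.14). Within runs 1 to 3 it was −3.51, −3.60 and −3.44, and within run 4 it was 0.08. The call was lost without any of 14 single libraries, with adjusted p up to 0.15.

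**Figure D1:**
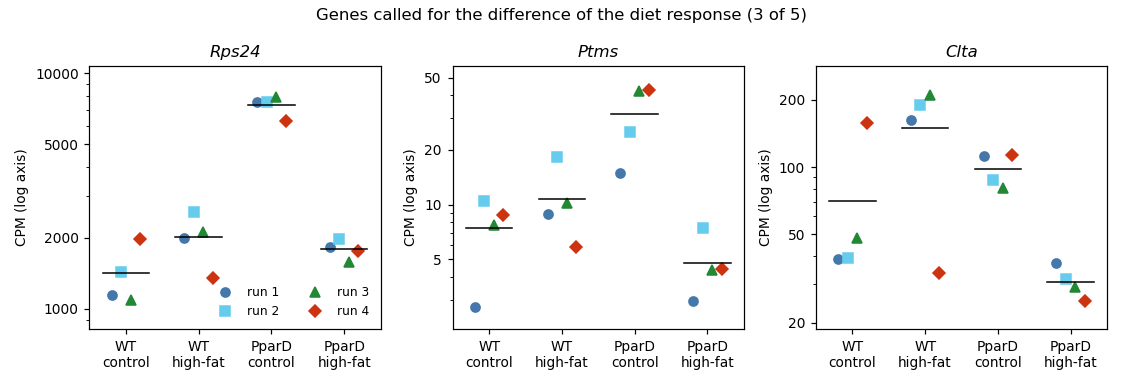
CPM (log axis) of Rps24, Ptms and Clta, 3 of the 5 genes called for the difference, in the 4 libraries of each WT and PparD group, with the run as colour and shape and the group mean as a line. For Rps24 the PparD control libraries stand above all others, and for Clta the WT libraries of run 4 lie on the opposite side from those of runs 1 to 3 under the same diet label.

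In WT the libraries of run 4 stood opposite to those of the other runs for more genes than Clta. In the other runs place and diet change together in WT, so a term for place rests on libraries 25 and 26. An effect of place cannot be told apart from another feature of those libraries. With place in the run as a term for the WT libraries, a fit chosen after seeing the data, 7 genes were called for place: Clta (log2 2.15 ± 0.21, second over first library; edgeR adjusted p = 3.1e-07), Txnip, which encodes a thioredoxin-binding protein that restrains glucose uptake, and the ribosomal protein genes Rpl14, Rpl39, Rps4x, Fau and Rps24. The place effect of Rps24 was 0.71 ± 0.12, of Rps4x 0.79 ± 0.12 and of Rpl14 1.32. In that fit 4 of the 5 genes kept their call for the difference, among them Rps24 at −2.20 ± 0.15 and Clta at −1.72 ± 0.29 (edgeR adjusted p = 2.3e-10 and 0.0043), and Ptms stood at −2.86 ± 0.59 (adjusted p = 0.054). The WT diet effect was then 0.16 ± 0.12 for Rps24 and 0.04 ± 0.21 for Clta, and no called gene was turned. The PparD libraries had no such term, so their diet effect could still hold an effect of place. A call kept in that fit therefore does not separate diet from place in PparD. Without run 4, 16 genes were called for the difference, all lower, of which 6 were lost and 7 turned. Among the 6 lost were Ftl1, Bzw2, Rpl39, Atp5d and Rpl14, of which Rpl39 and Rpl14 were also called for place.

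Just past the threshold stood Rps4x, which encodes the X-linked copy of a small subunit protein. It was at 6764, 6897, 6449 and 9653 CPM in WT control, 10823, 10668, 11678 and 5313 CPM in WT high-fat, 13414 to 15463 CPM in PparD control and 7782 to 10517 CPM in PparD high-fat. The WT libraries of run 4 again stood opposite to the others, and the Rps4x difference of −1.03 ± 0.22 (edgeR adjusted p = 0.075) was 0.08 within run 4. It was called in 6 of 28 alternatives, among them DESeq2 (adjusted p = 0.0051) and the fits without library 25 (−1.25; adjusted p = 7.6e-05), library 26 (−1.22; 0.0029) or run 4 (−1.36; 8.4e-06). Over the 78 ribosomal protein genes tested of 79 listed, 2 were called lower for the difference, among them Rps24, and the median difference was −0.11 with 64 below 0, beside −0.01 and 2986 below 0 over all 5872 genes, of which 0.0851% were called. Of the 78, 5 were negative in 4 of 4 runs, beside 363 of all genes. The median diet effect of the 78 was positive in both genotypes, 0.24 in WT and 0.14 in PparD. In WT 76 and in PparD 67 of them lay above 0, beside 2892 and 2889 of all genes. Ribosomal protein genes have many processed copies, so the counts of a single one are uncertain where reads fit several.

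No positive difference passed, while 7 did with no filter on low counts. In that setting adjusted p fell far for genes whose estimates hardly moved, as given below, so its calls carry little weight. Usp37 and Wrn, picked out after their values were seen, came nearest in the main fit (edgeR adjusted p = 0.075 and 0.11). Of 28 alternatives each was called in 1, Usp37 with limma on the deposited log2 values (1.41; adjusted p = 0.014) and Wrn without library 25 (1.96; adjusted p = 0.044). Usp37, which encodes a deubiquitinase active in the cell cycle, stood at 33.0, 32.9, 35.8 and 30.8 CPM in WT control, 23.5, 18.2, 16 and 20.4 in WT high-fat, 20.9, 16.3, 22.7 and 14.3 in PparD control and 32.6, 26.8, 34.8 and 20.5 in PparD high-fat. The WT groups did not overlap, and in PparD the lowest high-fat library lay below the highest control library. The Usp37 difference was 1.38 ± 0.27 (log2, SE; 95% interval 0.83 to 1.93), with −0.76 ± 0.19 in WT and 0.62 ± 0.19 in PparD, and it was positive in 4 of 4 runs, as were the differences of 328 genes in all. Wrn, which encodes a DNA helicase of the RecQ family, had a difference of 1.72 ± 0.40, with 16.5 to 23.5 CPM in WT control, 6.07 to 17.5 in WT high-fat, 8.91 to 15.8 in PparD control and 21.8 to 26.4 in PparD high-fat.

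**Figure D2:**
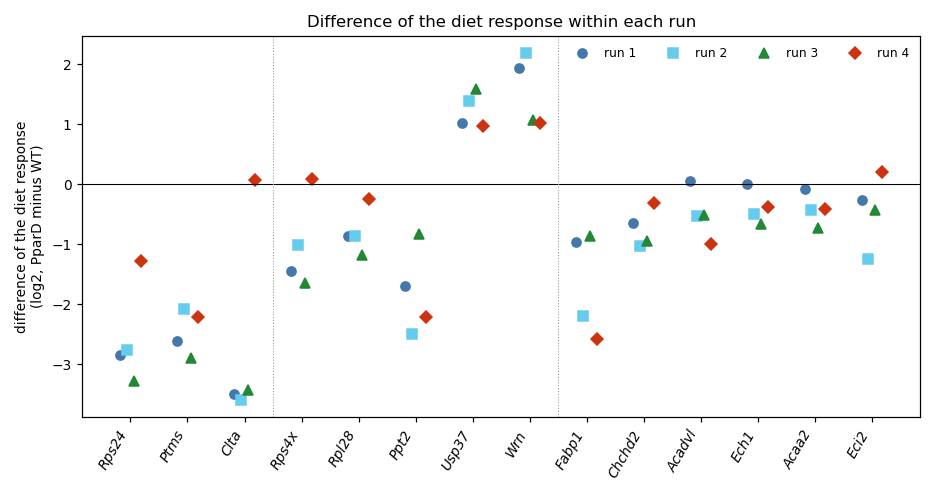
Difference of the diet response (log2, PparD minus WT) within each of the 4 runs, 1 symbol a run, for 3 of the genes called for the difference (left), genes near the threshold (middle) and 6 of the genes called for the diet in WT (right). Rps24 and Ptms lie below 0 in 4 of 4 runs, while Clta and Rps4x lie at 0.08 in run 4.

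Of the genes called for the diet in WT, 4 belong to the list of mitochondrial fatty acid oxidation. In WT 7 genes were called, 0.119% of those tested, and all 7 were higher on the high-fat diet, among them Fabp1, a fatty acid carrier of the cytosol, the beta-oxidation genes Acadvl, Ech1, Eci2 and Acaa2, and Chchd2, which encodes a mitochondrial protein tied to respiration. In PparD none of the 7 was called for the diet. Each of the 7 had a smaller log2 estimate in PparD than in WT, but none passed the test of the difference, so a lost response was not shown for any of them. Since the difference contains the WT response, these values are not independent of the WT calls that chose the genes.

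Fabp1 (ENSMUSG00000054422, chromosome 6, 71199827 to 71205023) stood at 166, 148, 157 and 99.8 CPM in WT control, 1260, 2216, 619 and 1679 in WT high-fat, 155, 180, 301 and 148 in PparD control and 600, 582, 644 and 408 in PparD high-fat. The control groups overlapped, and 3 of 4 WT high-fat libraries lay above every PparD high-fat library. The Fabp1 diet effect was 3.24 ± 0.63 in WT and 1.51 ± 0.59 in PparD, and the difference was −1.73 ± 0.84 (95% interval −3.45 to −0.01; edgeR adjusted p = 1). Chchd2 stood at 45.1 to 80.9 CPM in WT control, 85.7 to 138 in WT high-fat, 96.0 to 149 in PparD control and 114 to 126 in PparD high-fat. Of the 7 genes it had the smallest p of the difference, −0.75 ± 0.20 (95% interval −1.17 to −0.33; adjusted p = 0.33), with 0.73 ± 0.15 in WT and −0.02 ± 0.14 in PparD. Chchd2 had a higher mean in PparD control (122 ± 21.5 CPM, SD, n = 4) than in WT control (67.7 ± 15.7 CPM), near that of WT high-fat (112 ± 21.4 CPM).

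The differences of the beta-oxidation genes were smaller in size than those of Fabp1 and Chchd2. Acadvl, the very long-chain acyl-CoA dehydrogenase that begins the cycle, stood at 68.4 to 97.7 CPM in WT control, 127 to 192 in WT high-fat, 95.1 to 143 in PparD control and 121 to 192 in PparD high-fat, and its difference was −0.50 ± 0.21 (log2, SE). Acaa2, the thiolase that ends the cycle, stood at 196 to 265, 281 to 480, 374 to 411 and 483 to 540 CPM in the same groups, with a difference of −0.43 ± 0.22. For Ech1 and Eci2, isomerases that prepare unsaturated fatty acids for the cycle, the differences were −0.39 ± 0.16 and −0.48 ± 0.31. The edgeR adjusted p of all 4 differences was 1. Their WT effects ran from 0.67 ± 0.11 for Ech1 to 1.08 ± 0.23 for Eci2 and their PparD effects from 0.28 ± 0.11 to 0.60 ± 0.21.

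**Figure D3:**
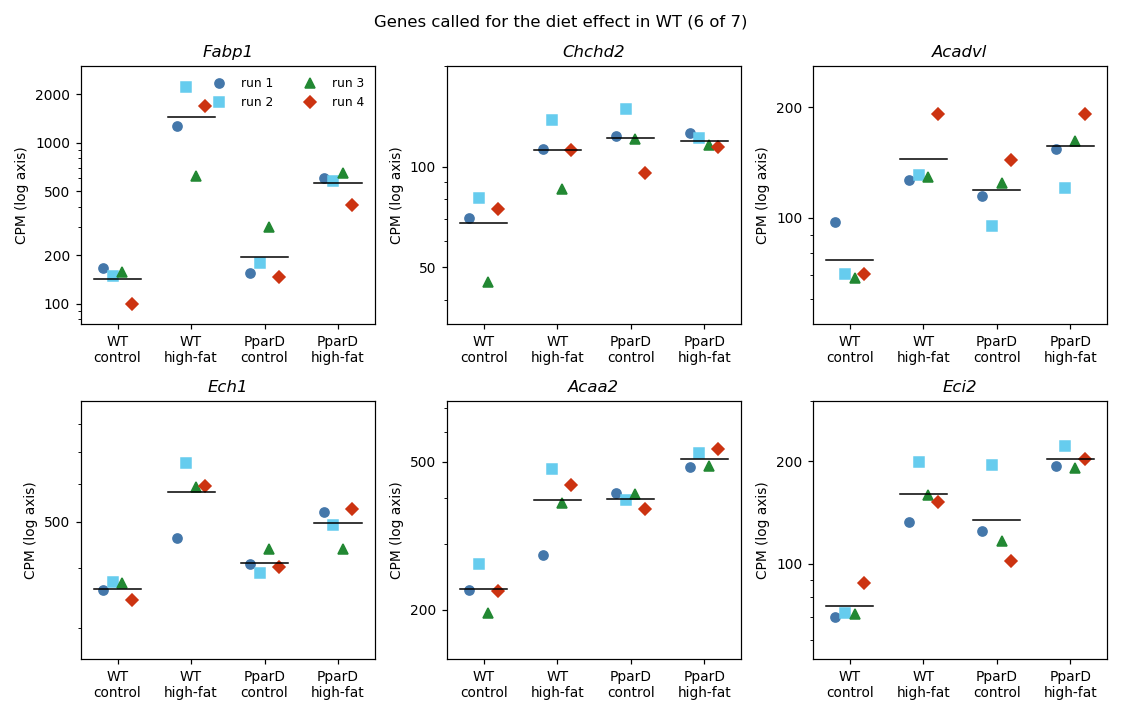
CPM (log axis) of 6 of the 7 genes called for the diet in WT, in the 4 libraries of each WT and PparD group, with the run as colour and shape and the group mean as a line. Chchd2 and Acaa2 have PparD control means of 122 and 397 CPM, at or above their WT high-fat means of 112 and 396 CPM.

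The WT calls rested on few libraries. Without library 10 or without library 17 none of the 7 was called, and with either left out edgeR called 0 genes in WT, where 426 and 421 had an unadjusted p under 0.05. Fabp1 was lost without any of 5 single libraries, Acaa2 without any of 6, Chchd2 without any of 7 and Eci2 without any of 12, while Acadvl and Ech1 were lost without library 10 or 17 only. Left out were the 16 WT and PparD libraries in turn.

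The promoters of the genes called in WT are shown because PPARs are known to bind near the start of some of their targets. Of the 7 genes 4 had a window in the RefSeq table (GRCm38.p6), which runs over 300 bases, mostly before the gene start. The sequence AGGNCANAGGNCA, a pair of receptor sites separated by 1 base, was searched on both strands with letters chosen when the Fabp1 sequence was in view. It was found in Fabp1 and in none of the other 3 genes, and in 0.381% of the 32851 promoters of the table. AGGTCA alone was found in Fabp1 and Acadvl, and in 16.3% of promoters. The Fabp1 window spans chr6:71199629-71199928 on the plus strand, with the paired site in capitals, on the opposite strand, 67 bases before the RefSeq gene start at 71199879, which lies inside the annotated gene given above. The Acadvl window spans chr11:70015379-70015678 on the minus strand, with AGGTCA in capitals 87 bases before its RefSeq start. A match describes the letters only.
Fabp1: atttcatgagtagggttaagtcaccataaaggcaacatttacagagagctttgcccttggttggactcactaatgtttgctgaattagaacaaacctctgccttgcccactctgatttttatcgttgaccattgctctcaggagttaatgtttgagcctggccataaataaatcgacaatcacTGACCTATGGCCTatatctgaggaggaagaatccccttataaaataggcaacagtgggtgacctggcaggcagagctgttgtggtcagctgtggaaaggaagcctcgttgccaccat
Acadvl: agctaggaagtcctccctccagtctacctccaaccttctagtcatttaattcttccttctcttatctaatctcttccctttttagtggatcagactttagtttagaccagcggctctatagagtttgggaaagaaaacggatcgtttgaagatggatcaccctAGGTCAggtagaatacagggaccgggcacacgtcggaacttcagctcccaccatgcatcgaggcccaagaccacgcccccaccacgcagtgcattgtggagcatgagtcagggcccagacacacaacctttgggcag

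Over the whole list of mitochondrial fatty acid oxidation, 20 of 22 genes were tested, 4 were called higher in WT, 0 in PparD and 0 for the difference. Of all genes 0.119%, 0.238% and 0.0851% were called in these comparisons. At the shares for PparD and for the difference, 0 called among 20 says little. The median diet effect was 0.53 in WT and 0.34 in PparD on the log2 scale, 16 of 20 differences lay below 0 and their median was −0.15, beside −0.01 over all genes. The list was not uniform. Cpt1a, which lets long-chain fatty acids into mitochondria, had 1.09 ± 0.37 in WT and 0.64 ± 0.32 in PparD, and Acadl and Acadm, dehydrogenases of long and medium chains, had differences of −0.09 ± 0.51 and −0.09 ± 0.22 that were positive in some alternatives. Acadl had nearly the same estimate in WT (1.01 ± 0.43) and PparD (0.92 ± 0.33). Etfdh, which passes the electrons of beta-oxidation to the respiratory chain, had the largest negative difference of the list, −0.52 ± 0.19 (95% interval −0.91 to −0.13; edgeR adjusted p = 0.95), with 0.60 ± 0.14 in WT and 0.08 ± 0.13 in PparD.

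**Figure D4:**
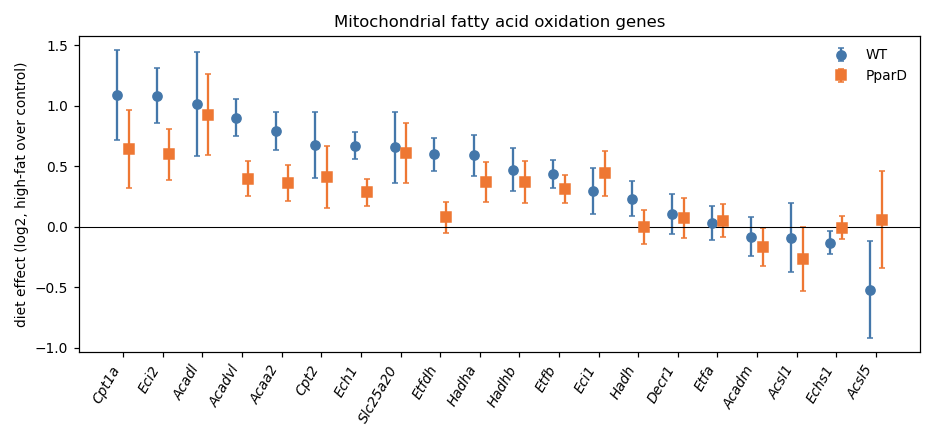
Diet effect (log2, high-fat over control) of the 20 tested genes of mitochondrial fatty acid oxidation in WT (blue circles) and PparD (orange squares), with bars of 1 SE. The estimates in PparD are lower than those in WT for 16 of the 20 genes, the error bars of many overlap, and Acadl, Etfa and Acadm lie close together.

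Among 9 tested PPAR targets outside fatty acid oxidation, of 22 listed, 1 was called in WT (Fabp1) and 0 for the difference. The shares over all genes were 0.119% and 0.0851%. Angptl4, a secreted inhibitor of lipoprotein lipase, stood at 0 to 4.49 CPM in WT control, 2.90 to 10.2 in WT high-fat, 8.94 to 17.8 in PparD control and 23.2 to 35.6 in PparD high-fat. Its diet effect was 1.90 ± 0.83 in WT and 1.25 ± 0.46 in PparD, and its difference was −0.65 ± 0.92 (95% interval −2.54 to 1.23; edgeR adjusted p = 1). Plin2, a coat protein of lipid droplets, had a difference of 0.31 ± 0.20.

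In PparD 14 genes were called for the diet, 0.238% of those tested, 13 lower and 1 higher on the high-fat diet. The count was 5 without the run factor, 7 without library 3 and 8 without library 4. Rps24 and Ptms, described above, were among them. Ppt2, which encodes a lysosomal thioesterase, stood at 40.2, 41.6, 62.1 and 61.6 CPM in PparD control and at 8.89, 8.95, 14.5 and 7.34 CPM in PparD high-fat, against 2.90 to 10.6 CPM over the 8 WT libraries. In PparDA Ppt2 stood at 32.5 to 42.3 CPM on the control and at 1.59 to 12.6 CPM on the high-fat diet. Its PparD effect was −2.34 ± 0.27 (edgeR adjusted p = 5.2e-06), and the difference from WT was −2.05 ± 0.52 (95% interval −3.12 to −0.98; adjusted p = 0.18). Stk11, which encodes the kinase LKB1, fell from 19.7 to 30.1 CPM in PparD control to 4.47 to 7.25 CPM in PparD high-fat. Those high-fat libraries held 3 to 5 counts of it each. Its diet effect was −2.02 ± 0.37 in PparD and −0.64 ± 0.40 in WT. The Stk11 difference from WT was −1.38 ± 0.56 and did not pass. In both genes the PparD control libraries stood above all others of the 4 groups, as they did for Rps24.

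The other named genes called in PparD were Rpl28, a large subunit protein (−0.67 ± 0.13), Cops2, a subunit of the COP9 signalosome (−0.57 ± 0.11), Ppil3, a cyclophilin of the spliceosome (−1.0 ± 0.22), and Rps10, the only one higher (0.69 ± 0.14; edgeR adjusted p = 0.0125, 0.013, 0.034 and 0.013). Their differences from WT were −0.79 ± 0.18, −0.64 ± 0.16, −1.09 ± 0.31 and 0.38 ± 0.20 and did not pass (adjusted p = 0.11, 0.18, 0.46 and 1). The Rpl28 difference passed in 4 of 28 alternatives, with DESeq2 (adjusted p = 0.022), with no filter (1.0e-06), without library 25 (0.011) and without run 4 (0.036). Their PparD calls were lost without any of 4 single libraries for Rpl28 and Cops2, 5 for Rps10 and 8 for Ppil3. The remaining 4 were 1810058I24Rik and Gm28037 and the pseudogenes Rpl28-ps1 and Gm9794. In the 4 groups these pseudogenes had counts in run 1 alone, so their calls rest on that run.

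**Figure D5:**
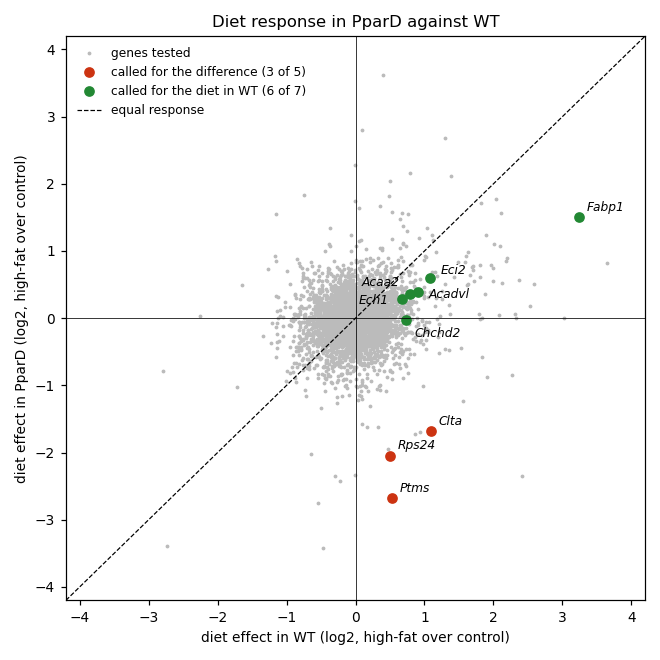
Diet effect in PparD against that in WT (both log2, high-fat over control) for 5864 of the 5872 genes tested, with 8 outside the axes. Marked are 3 of the 5 genes called for the difference (red), which lie below the dashed line of equal response at −1.68 or lower in PparD, and 6 of the 7 called in WT (green), which lie to the right, between 0 and the line apart from Chchd2 at −0.02.

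At an unadjusted p under 0.05, 255 genes were below the threshold for the difference, 4.34% of those tested and under the 5% that this threshold gives where nothing differs. That was fewer than for the diet in WT (555, 9.45%) or in PparD (357, 6.08%). By the same threshold on each diet effect, 108 of the 255 were lost, 78 gained, 8 turned, 4 unequal in the same direction and 57 had no diet effect in either genotype. The 108 lost split into 48 with a higher and 60 with a lower response in PparD. These classes describe single estimates and none of the 108 passed the adjusted threshold.

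Genes of sterol synthesis lay mostly below 0 in the difference without any call, where 0.0851% of all genes were called. Of 14 tested of 22 listed, 13 had a negative difference, with a median of −0.40 and medians of 0.22 in WT and −0.28 in PparD, and 7 were negative in 4 of 4 runs, as were 363 of all 5872 genes. Srebf2, the transcription factor that turns the pathway on, stood at 12.4 to 22.5 CPM in WT control, 17.4 to 25.8 in WT high-fat, 19.7 to 28.2 in PparD control and 10.4, 13.4, 11.6 and 30.8 in PparD high-fat, where library 28 stood apart. The Srebf2 difference was −0.94 ± 0.35 (edgeR adjusted p = 1).

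Antimicrobial genes had large and uneven differences. Of 8 tested of 15 listed, 0 were called, beside 0.0851% of all genes, and 6 lay below 0, with a median of −1.35. Reg3b, a lectin that binds bacteria, stood at 132 to 559 CPM in WT control, 39.2 to 414 in WT high-fat, 733, 3964, 1185 and 73.1 in PparD control and 32.6, 267, 13.1 and 223 in PparD high-fat. The run 4 PparD control library lay below its high-fat partner, and the Reg3b difference was −3.20, −3.45 and −4.16 within runs 1 to 3 and 0.54 within run 4. Its fitted value was −2.95 ± 1.27 and that of Reg3g −2.20 ± 1.0 (edgeR adjusted p = 1 for both).

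Stem cell genes showed no called difference. Of 20 tested of 25 listed, 0 were called, beside 0.0851% of all genes, 11 lay above 0, and the median was 0.13. Lgr5, a receptor for R-spondins that marks these cells, stood at 30.3 to 66 CPM in WT control, 36.4 to 46.5 in WT high-fat, 28.8 to 65.9 in PparD control and 29.0 to 58.7 in PparD high-fat, with a difference of −0.13 ± 0.32 (95% interval −0.78 to 0.52; edgeR adjusted p = 1) that changed sign in some alternatives. Olfm4, a secreted glycoprotein of the crypt base, stood at 7270 to 13368 CPM over the 16 libraries and had a difference of −0.16 ± 0.15 (95% interval −0.46 to 0.14). Of 24 proliferation genes 12 lay on each side of 0, and of 6 MHC class II genes the median was −0.78 in WT, −0.84 in PparD and −0.01 for the difference.

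No marker of Paneth, goblet or enteroendocrine cells was called, while the share of all genes called for the difference was 0.0851%. Paneth cell markers, of which 20 of 21 were tested, had a median diet effect of 1.76 in WT and 0.70 in PparD, and 17 of 20 differences lay below 0, with a median of −1.07. Their summed level was 7087 to 19419 CPM in WT control, 11219 to 55765 in WT high-fat, 3358 to 20312 in PparD control and 7200 to 14313 in PparD high-fat, so that the groups overlapped. Ang4, a Paneth cell ribonuclease, stood at 245 CPM in WT control library 26 and at 16.5 to 38.5 CPM in the other 3, and its difference was −1.80 ± 0.89. Goblet cell markers (10 tested of 14) summed to 1796 to 4919, 3178 to 6832, 1568 to 2922 and 3248 to 5454 CPM in the same order of groups, and enteroendocrine markers (8 tested of 17) to 74.8 to 257, 112 to 415, 35.7 to 145 and 163 to 247 CPM. The goblet differences had a median of 0.21, with 6 above 0 and 4 below. For enteroendocrine markers the median was 0.18, with 5 above 0 and 3 below. Muc2, the main mucin, had a difference of 1.34 ± 0.88, and Sst, the hormone somatostatin, one of 3.22 ± 1.53 (edgeR adjusted p = 1 for both), with Sst at 0 CPM in 3 of 4 PparD control libraries. These 2 were picked from lists with members on both sides of 0. In bulk RNA a change in the number of such cells and a change in RNA per cell cannot be told apart. The part of these cells in the differences above was not tested.

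Enterocyte markers, a list that includes Fabp1, summed to 3287 to 3644 CPM in WT control and 3837 to 6193 in WT high-fat. In PparD they summed to 3447 to 4315 CPM on the control and 3649 to 4720 on the high-fat diet. Tuft cell markers summed to 314 to 534 CPM over the 4 groups. The part of enterocytes and tuft cells in the differences was not tested either. Markers of cells outside the epithelium were low. The 8 epithelial markers summed to 4474 to 5476 CPM over the 4 groups, lymphocyte and myeloid markers to 0 to 17.6 CPM, red blood cell markers to 0 to 10.2 CPM and stromal and endothelial markers to 7.46 to 20.5 CPM. None of the 17 immune and 6 red blood cell markers was high enough to be tested.

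On simulated counts with the spread of these libraries, the share of changed genes called was 8.96% for a 1.5-fold, 40.3% for a 2-fold and 71.2% for a 4-fold difference, and 1 of 5672 unchanged genes was called. The simulated counts carried no run or place effect and no group effect beyond the change, which was set in PparD high-fat alone. With such effects present, as in these libraries, the shares may differ.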

How the data were processed

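RNA of sorted GFP-high cells was measured in 32 libraries, 8 groups of 4, by 3′ digital gene expression. The authors deposited expected counts per gene and library, already rounded to whole numbers, and a table of log2(CPM + 1) values. Named in the submitters' processing notes, with no role given, are mm10, Salmon 1.1.0, R 4.0.2 and edgeR 3.30.2. The annotation release and any use of molecular identifiers are unstated there, and intervals cover the spread between libraries only. Each library of the deposited log2(CPM + 1) table summed to 1e+06 on the CPM scale, and 88.8 to 90.8% were whole within 0.02 counts once scaled to the library total. They served as an alternative only.

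Each column name holds a group and a library number and no replicate number. Of 54418 identifiers 54166 were matched to GENCODE M21 (GRCm38). Genes were kept by filterByExpr of edgeR 4.0.16 in R 4.3.3 (minimum count 10, minimum total 15), which left 5872 genes with 97.1 to 97.7% of counts, and were scaled by TMM (factors 0.938 to 1.07). A quasi-likelihood model (glmQLFit and glmQLFTest, no robust prior) with 1 coefficient per group and the run of 8 library numbers as a factor was fitted to all 32 libraries. The biological coefficient of variation was 16.8%. Tests were two-sided, Benjamini-Hochberg adjustment ran over all genes tested, separately by comparison, and 0.05 was the threshold for a call. The SE is the log2 change divided by the square root of F. CPM values use the TMM factors per 1e+06 counts in genes tested. Within-run values are differences of log2 CPM with a prior count of 2. A gene was lost when only the WT diet effect had an unadjusted p under 0.05, gained when only the PparD effect had, turned when both had with opposite signs, and unequal when both had with the same sign.

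Members and lists were chosen with earlier results of these data known. The rule for named genes took the 10 largest differences in each direction among called genes averaging 10 CPM or more, or the 5 with the smallest p where fewer than 5 passed, genes called for either diet effect, called turned genes, fixed genes of fatty acid metabolism and stem cells, and up to 3 members of each of 31 lists. Predicted genes and pseudogenes were left out of it. A few genes that it gave, called ones among them, are not reported here but stay in all counts. Not every gene it gave is named, and the choice among them came after their values were seen. The fit was tested on simulated data. Alternatives used limma 3.58.1 and DESeq2 1.42.0, among other settings.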

Additional observations from a re-analysis of the deposited data

Results flagged for a closer look

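The diet response differed between PparD and WT, by the test of the difference itself, for Rps24 (log2 −2.54), Ptms (−3.21) and Clta (−2.77). Their calls held unequally: over 28 alternatives Rps24 lost its call in 0, Ptms in 5 and Clta in 18. Clta stood at −1.72 with WT place as a term and at 0.08 within run 4. Over 35 named genes in 4 groups, 140 groups of 4 libraries were examined, and in 18 of them 1 library stood apart, its gap to the nearest other taking a large share of the whole range. Chance gives such a gap in about 1 in 20 groups, but the count cannot be read against that rate: several of the genes were named for a place effect that libraries 25 and 26 carry, and 7 of the 18 are such genes in those libraries.

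Of the 18, 7 were in WT control library 26 and 3 in WT high-fat library 25, the WT libraries of run 4. In library 26 the share was 0.918 for Clta (157 CPM, others 38.5 to 48.2), 0.860 for Rps4x, 0.903 for Eci2 (88.0 CPM, others 70.1 to 71.9), 0.904 for Ang4, 0.933 for Txnip (210 CPM, others 79.3 to 88.0), 0.890 for Rpl14 (6305 CPM, others 2080 to 2547) and 0.900 for Fau, all above the others. In library 25 it was 0.841 for Rps4x and 0.832 for Fau, both below, and 0.940 for Acadvl, above (192 CPM, others 127 to 131).

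In the other WT libraries the share was 0.931 for Acadvl in library 1 (97.7 CPM, others 68.4 to 70.4) and 0.842 for Reg3b in library 9. In PparD control it was 0.947 for Ang4 and 0.935 for Fau in library 27, and 1 for Sst in library 19 (3.03 CPM, others 0). In PparD high-fat it was 0.851 for Srebf2 and 0.867 for Wrn in library 28 (30.8 and 26.4 CPM, both above) and 0.882 for Rpl14 in library 20 (2861 CPM, others 3340 to 3404).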

How the results depend on the processing

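The run number is a shared number, not a stated pairing: after group means were removed, same-run libraries of WT and PparD correlated across genes at 0.0033 to 0.40 (median 0.15), other pairs at −0.44 to 0.13, and all 16 matched their own run best. Removing group means pushes libraries of the same group below 0, and these are always of different runs. Part of that contrast is therefore built in. Without the replicate block 3 genes were called for the difference, 6 in WT and 5 in PparD, against 5, 7 and 14. The numbers called for the difference, in WT and in PparD were 8, 43 and 13 with DESeq2, 61, 116 and 96 with no filter, 10, 19 and 11 in runs 1 and 3 alone, 2, 5 and 5 in runs 2 and 4 alone, and 16, 97 and 14 without run 4. With no filter the Fabp1 difference was −1.75 (edgeR adjusted p = 1.6e-18), against −1.73 and no call in the main fit. Reg3b, also not called in the main fit, stood at −2.97 (edgeR adjusted p = 3.9e-49). The p-values and counts with no filter are therefore not read as added evidence, those of Rps4x and Rpl28 included. In WT 4 genes were called with a robust prior, 3 with limma on the deposited log2 values and 2 with WT place as a term. With pseudogene copies summed 3 genes were called for the difference. The last 2 settings were chosen after seeing the data. Leaving out each library gave 4 to 9 for the difference (9 without library 25 or 26), 0 to 42 in WT (42 without 26, 21 without 25, 2 without 1 or 9, 3 without 18) and 7 to 17 in PparD (7 without 3, 8 without 4).

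Over 28 alternatives Rps24 kept its call in all (−3.07 to −2.05), while Ptms lost it in 5 and Clta in 18. Of all 35 named genes, 18 kept their direction and their side of the threshold throughout. Signs changed for Acadl (0.089 with limma, 0.63 in runs 1 and 3 alone; −0.33 to 0.23 leaving out libraries), Cpt1a (0.55 in runs 1 and 3 alone), Lgr5 (0.39 in runs 2 and 4 alone, 0.052 with WT place; −0.33 to 0.044 leaving out libraries), Txnip (0.61 and 0.51 in those 2 settings), Rpl14 (0.23 and 0.023) and Acadm (−0.16 to 0.027 leaving out libraries). Apart from changes due to fewer libraries or genes in the fit, the cause was not tested. At these depths low genes such as Ppara and Ppard gave no test.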
